A study of Arabidopsis thaliana with 6 samples.

Results

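The JAZ (JASMONATE ZIM-DOMAIN) repressors of jasmonate signalling were examined as the 10 Arabidopsis thaliana loci JAZ1 to JAZ10, through every array probe annotated to one of these locus codes. The array carried 13 such probes among 43603, with 2 probes each for JAZ4, JAZ6 and JAZ10 and 1 for each of the other 7 loci. All 10 loci were tested, through 12 of the 13 probes, within a fit of 24458 genes. JAZ4 entered that fit only through its atnaod samples, since 1 of its probes was well above background in 3 of 3 atnaod and 2 of 3 wild-type samples and the other in too few samples to be tested. The remaining 9 loci were well above background on all 6 arrays. The members are JAZ1 (AT1G19180), JAZ2 (AT1G74950), JAZ3 (AT3G17860), JAZ4 (AT1G48500), JAZ5 (AT1G17380), JAZ6 (AT1G72450), JAZ7 (AT2G34600), JAZ8 (AT1G30135), JAZ9 (AT1G70700) and JAZ10 (AT5G13220).

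RNA came from whole fertilised flowers at flowering stage 15, a stage at which petals and stamens are still attached and seeds have begun to form. One group was wild type, for which no accession is named in the labels. The other was atnaod, a T-DNA mutant of AtNAOD (locus AT4G17830), which encodes the N-acetylornithine deacetylase that yields ornithine. Plants of both groups grew at 25 °C in days of 16 h light and 8 h dark and received no named treatment, and each of the 3 samples per group pooled about 100 flowers from 17 to 20 plants. The mutant is 1 T-DNA line as far as the labels say, so that the loss of AtNAOD and other features of the line cannot be told apart, and whether its samples came from separate growth batches is not stated in the labels, so that p-values measure the spread between these pools.

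Jasmonoyl-isoleucine, the active form of the hormone jasmonate, is perceived by the F-box protein COI1 together with a JAZ protein, and the JAZ protein is then ubiquitinated and degraded. In the absence of the hormone JAZ proteins bind transcription factors such as MYC2 and hold them inactive through the adaptor NINJA and corepressors of the TOPLESS family. Many JAZ genes are themselves induced by jasmonate, so that they act as a feedback brake on the pathway. In the flower, jasmonate is known for stamen maturation, pollen release and petal growth, acting through the JAZ-bound factors MYB21 and MYB24.

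The levels below are log2 of the processed fluorescence intensity minus the 75th percentile of the same array, a scale that allows samples to be compared for 1 probe but not one probe with another. That percentile was 1318 to 3007 intensity units across the 6 arrays. The share of probes well above background was 73.2% to 79.2%. The AtNAOD transcript stood at 1.69 ± 0.07 (SD, n = 3) in the wild-type samples, and by this brighter of its 2 probes it was not well above background in any mutant sample, at least 369-fold lower. The second AtNAOD probe was well above background in all mutant samples and had a log2 change of -1.23 (adjusted p = 0.0286 in the limma fit of all probes). One slide carried samples 1 and 2 of each genotype, and another slide carried both samples 3. The 7 floral organ identity markers (AP1, AP3, PI, AG and SEP1 to SEP3) were well above background on every array. Of them 0 were called, where 5.78% of all genes were.

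One JAZ gene, JAZ10, rose in atnaod flowers, and the other 9 did not pass the test. JAZ10 encodes a jasmonate-induced repressor known for desensitising tissue to the hormone. Its level was 0.50, 0.72 and 0.57 for wild type 1 to 3, against 1.09, 1.15 and 1.23 for atnaod 1 to 3. Every atnaod sample lay above every wild-type sample, and the gap between the groups was wider than the spread within either. The change was 0.56 on the log2 scale (SE 0.0956, 95% interval 0.34 to 0.79, adjusted p = 0.0311 with limma), a 1.48-fold rise (1.26 to 1.73). Thus 1 of the 10 members was called, higher, where 2.72% of all genes tested were called higher, 3.06% lower and 5.78% in either direction. In whole flowers, fewer cells of a type and less RNA per cell cannot be told apart. Within slides, the JAZ10 difference was 0.51 for the pair of samples on one and 0.66 for the single sample per genotype on the other.

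**Figure D1:**
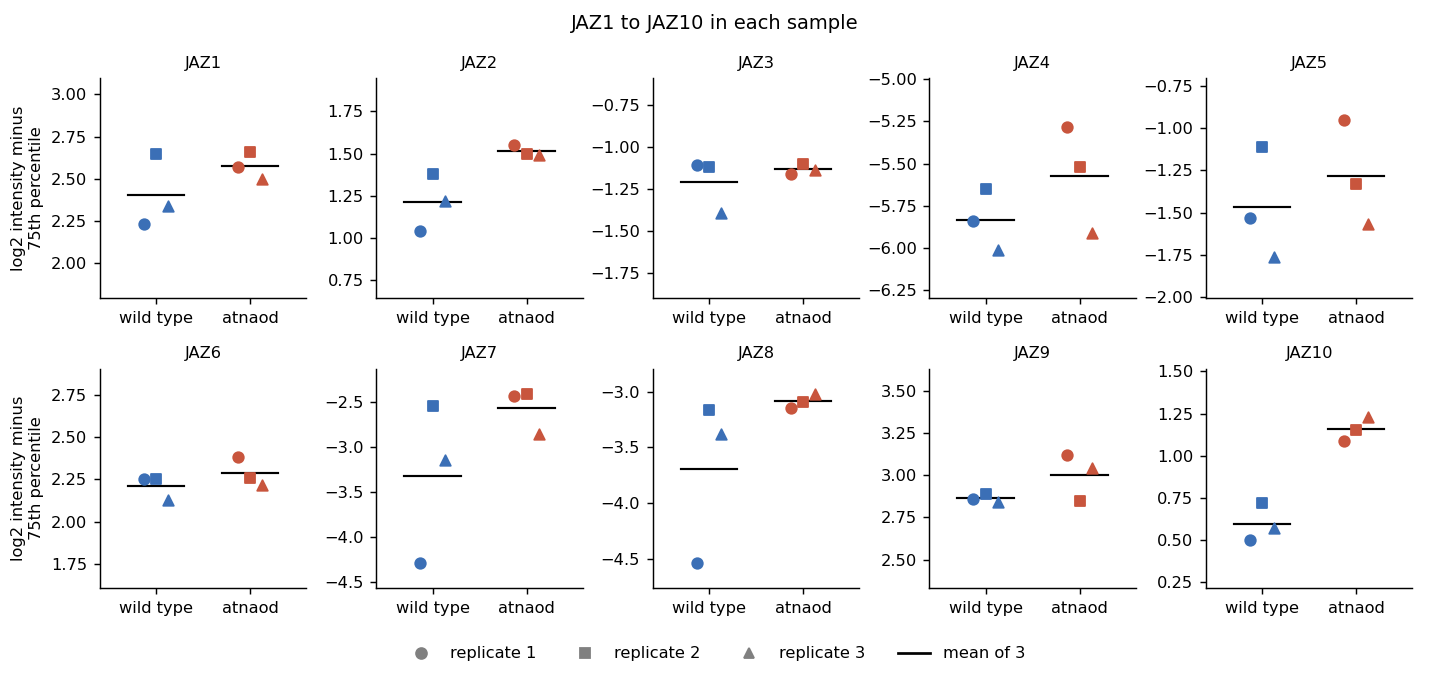
Level of each JAZ gene in each sample, as log2 intensity minus the 75th percentile of the array. Marker shapes give the replicate number, black lines the mean of the 3 samples, and each panel has its own vertical range. The atnaod points lie above all wild-type points for JAZ2, JAZ8 and JAZ10, and wild type 1 lies far below the other samples for JAZ7 and JAZ8.

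The second JAZ10 probe gave the same direction. The array annotation ties the probe described above to transcript 2 of the locus and the second probe to transcript 1. JAZ10 is known for alternative splicing into forms that differ in the domain through which COI1 binds, and RefSeq lists 7 transcripts for it, more than for any other member. The second probe read -0.76, -0.52 and -0.70 for wild type 1 to 3, against -0.07, -0.03 and 0.06 for atnaod 1 to 3. These groups did not overlap either. In a fit over all 32497 probes it changed by 0.65 (SE 0.100, adjusted p = 0.0308) and the first probe by 0.56 (adjusted p = 0.0371), so that 2 of the 12 JAZ probes were called, against 1.85% of all probes called higher and 3.84% in either direction.

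The 2 JAZ10 probes differed by 0.09 in their log2 changes. Against its wild-type mean, the second probe relative to the first stood at -0.01, 0.01 and -0.01 for wild type 1 to 3, against 0.10, 0.07 and 0.09 for atnaod 1 to 3. The groups did not overlap, and a two-sided exact permutation test gave p = 0.1, the smallest that 3 against 3 samples allow. Which exons the probes read was not analysed here, and this comparison was chosen after the values were seen. For the 2 JAZ6 probes the difference was -0.02 (exact permutation p = 0.6).

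Over 18 alternative settings the log2 change of JAZ10 ranged from 0.51 to 0.62, and 10 of the 18 called it. With all 6 samples the call was lost with the deposited value table (adjusted p = 0.0597) and with no filter on dim probes (adjusted p = 0.109). Without atnaod 1 it was still called (adjusted p = 0.0372). Leaving out wild type 1, 2 or 3 gave an adjusted p of 0.0582, 0.0924 or 0.106. Leaving out atnaod 2 or 3 gave 0.129 or 0.0990. Those 5 fits called fewer genes in all, from 14 without atnaod 2 to 567 without wild type 1, against 1414 with all samples. With the replicate number as a block the adjusted p was 0.0434, and with slide as a block 0.0318. On the first slide alone, where 27 genes were called in all, JAZ10 was not called (adjusted p = 0.218).

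**Figure D2:**
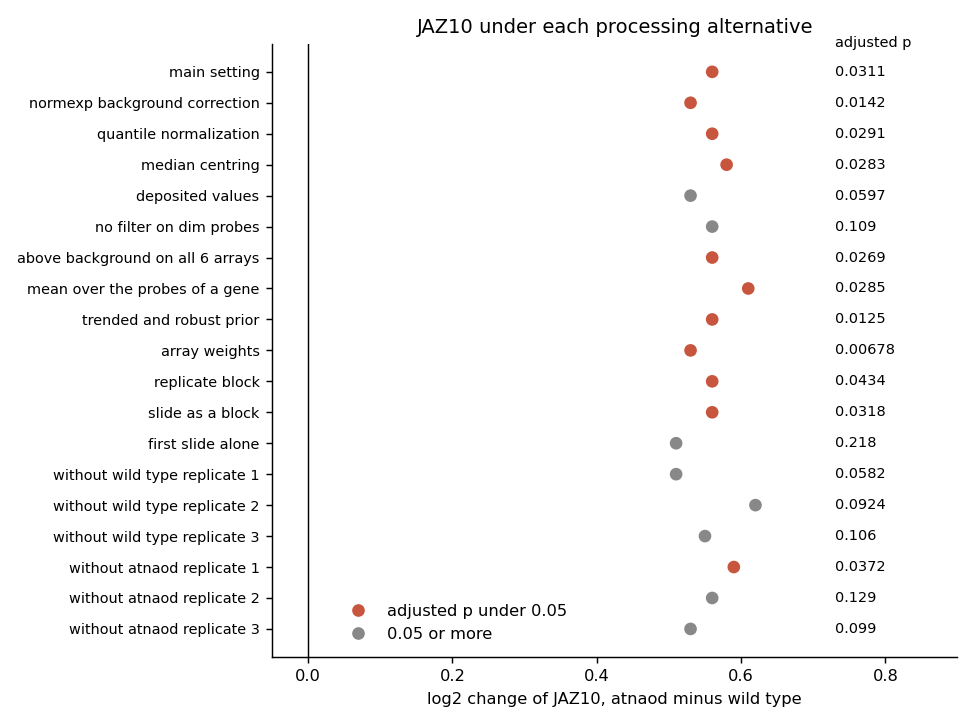
Log2 change of JAZ10, atnaod minus wild type, under the main setting and 18 alternatives, with the adjusted p at the right. All points lie between 0.51 and 0.62, and 8 alternatives, drawn in grey, have an adjusted p of 0.05 or more.

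JAZ1, JAZ2, JAZ5 and JAZ6, which form one branch of the family and are bound by COI1 when the hormone is present, did not pass the test. JAZ2, known for its role in stomatal guard cells, stood at 1.04, 1.38 and 1.22 for wild type 1 to 3, against 1.55, 1.5 and 1.49 for atnaod 1 to 3. Its atnaod samples lay close together and all above wild type. The difference was 0.30 (95% interval 0.04 to 0.56, adjusted p = 0.143), and 0.21 without wild type 1. JAZ1, one of the first repressors shown to be degraded through COI1, read 2.23, 2.65 and 2.34 for wild type 1 to 3, against 2.57, 2.66 and 2.5 for atnaod 1 to 3. These ranges overlapped, with wild type 2 above atnaod 1 and 3, and the difference of 0.17 (-0.13 to 0.47, adjusted p = 0.434) fell to 0.09 without wild type 1.

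JAZ5 and JAZ6 carry an EAR motif, which binds corepressors directly, beside the domain that binds NINJA. JAZ5 read -1.53, -1.11 and -1.76 for wild type 1 to 3, against -0.95, -1.33 and -1.57 for atnaod 1 to 3, and no order of the genotypes was visible in its overlapping values. Its difference of 0.19 had an interval of -0.32 to 0.69, and without atnaod 1, the highest sample, it was 0.02. JAZ6 varied little between samples, with 2.25, 2.25 and 2.13 for wild type 1 to 3, against 2.38, 2.26 and 2.22 for atnaod 1 to 3. Its difference was 0.08 (-0.13 to 0.29) by this probe and 0.10 by its second probe. The interval runs from 0.911-fold to 1.22-fold.

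JAZ3, JAZ4 and JAZ9 form another branch of the family, whose members are also degraded through COI1. JAZ9 read 2.86, 2.89 and 2.84 for wild type 1 to 3, against 3.12, 2.85 and 3.04 for atnaod 1 to 3. Atnaod 1 and 3 were the highest samples and atnaod 2 lay within the wild-type range, and the difference was 0.14 (-0.09 to 0.37, adjusted p = 0.413). JAZ3 read -1.11, -1.12 and -1.39 for wild type 1 to 3, against -1.16, -1.1 and -1.14 for atnaod 1 to 3. Only wild type 3 stood apart from the other samples of JAZ3. The difference was 0.07 (-0.17 to 0.32), and it was -0.02 without wild type 3. By slide it was -0.01 where samples 1 and 2 lay and 0.24 for sample 3.

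JAZ4 was close to the detection limit. The probe that was tested read -5.84, -5.65 and -6.01 for wild type 1 to 3, against -5.28, -5.52 and -5.91 for atnaod 1 to 3. The groups overlapped, and the difference was 0.26 (-0.15 to 0.68, adjusted p = 0.392), or 0.11 with the normexp background correction. The second JAZ4 probe was not well above background in any wild-type sample and was so in 2 of 3 atnaod samples, and it was not tested.

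JAZ7 and JAZ8, divergent members that lack the canonical sequence through which COI1 and the hormone bind, had the largest estimates of the 10 and also the largest spread. JAZ7 read -4.29, -2.54 and -3.14 for wild type 1 to 3, against -2.43, -2.41 and -2.85 for atnaod 1 to 3. Wild type 1 lay far below the rest, and wild type 2 fell within the atnaod range. The difference was 0.76 (-0.21 to 1.73, adjusted p = 0.294). It was 1.0 for samples 1 and 2, 0.29 for sample 3, and 0.28 without wild type 1. JAZ8 read -4.54, -3.16 and -3.38 for wild type 1 to 3, against -3.14, -3.09 and -3.02 for atnaod 1 to 3. Its groups did not overlap, though wild type 2 and atnaod 1 differed by little. The difference was 0.61 (-0.18 to 1.40, adjusted p = 0.300), and 0.19 without wild type 1.

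The SD of JAZ7 was 0.89 in wild type and 0.25 in atnaod, and that of JAZ8 0.74 and 0.06. In 7 of the 10 members the wild-type SD was the larger one, as it was in 57% of all genes tested. Both genes are known to respond rapidly to wounding. In 14 other genes of rapid touch and wound response, wild type 1 was likewise low: it was below wild type 2 and 3 in 13 of the 14, and the list's median against the wild-type mean was -0.47, 0.37 and 0.12 for wild type 1 to 3, against 0.50, 0.25 and 0.23 for atnaod 1 to 3. Of these 14 genes 0 were called with limma and 4 had an unadjusted p under 0.05, a share close to the 25.8% of all genes. The 4 of lowest p were the transcription factor genes ERF6 at 0.49 and WRKY40 at 1.14, the zinc finger gene CZF1 at 0.31 and the cell wall enzyme gene TCH4 at 1.0. Among the JAZ genes wild type 1 was the lowest of all 6 samples in 5 of 10. The share of all genes in which wild type 1 was lowest was not computed, so these counts have no reference. The part of the touch and wound genes' pattern in the JAZ differences was not tested.

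As a set, all 10 JAZ genes had a difference above 0, where 48.8% of all genes did. Their median difference was 0.22, against -0.01 over all genes (0.25 and 0.22 on the 2 slides). In 3 of the 10 (JAZ2, JAZ8 and JAZ10) every atnaod value exceeded every wild-type value, which 15.3% of all genes showed in this direction and 32.3% in either. Each slide gave the same sign for 9 of the 10, JAZ3 being the exception, and for 78.5% of all genes. Without wild type 1 the median was 0.17, without wild type 2 it was 0.36 and without atnaod 1 it was 0.15. Of the 10 members 2 (JAZ10 and JAZ2) had an unadjusted p under 0.05, as did 25.8% of all genes. Their medians in the single samples, relative to the wild-type mean, were -0.08, 0.18 and -0.05 for wild type 1 to 3, against 0.42, 0.27 and 0.14 for atnaod 1 to 3, so that atnaod 3 lay slightly below wild type 2. The members were measured on the same 6 arrays and are not replicates of one another.

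**Figure D3:**
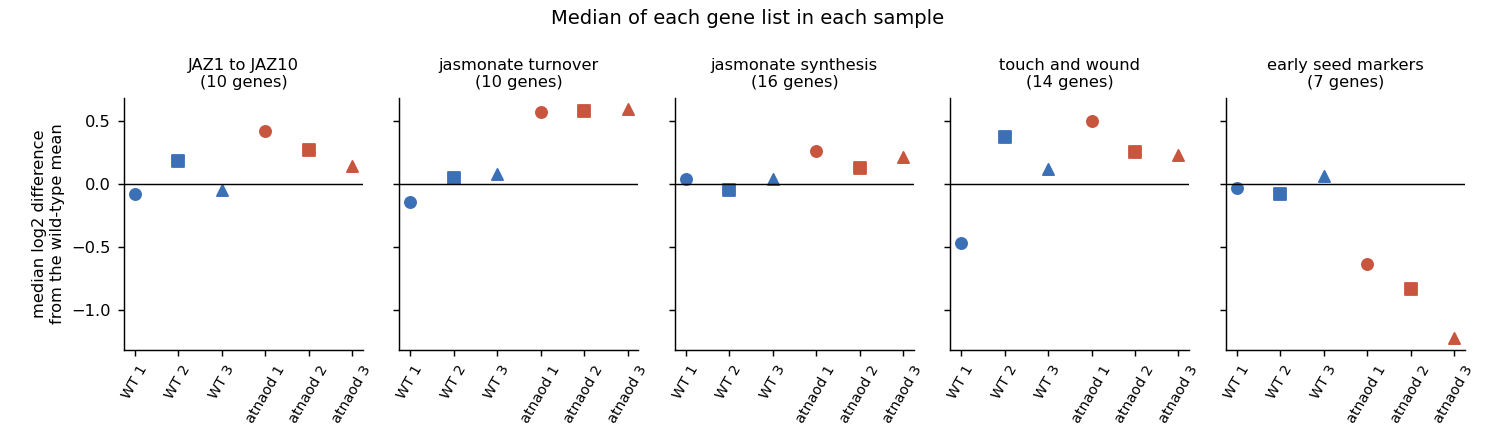
Median over the tested genes of 5 lists of the log2 difference from each gene's wild-type mean, in each sample (WT, wild type). The JAZ medians of wild type 2 (0.18) and atnaod 3 (0.14) are in reversed order, the turnover medians of the atnaod samples lie near 0.6, wild type 1 is lowest for the touch and wound list, and the early seed markers fall in all atnaod samples.

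Among markers of tissues within the flower, the carpel and ovule markers and 4 of 7 tested early seed markers fell in atnaod. Of the pollen and floral organ markers 0 were called, where 5.78% of all genes were. The 3 carpel and ovule markers STK, SHP1 and SHP2 fell (-0.73, -0.49 and -0.48), where 3.06% of all genes were called lower. Of 7 tested early seed markers 4 were called lower and all 7 lay below 0, where 48.8% of all genes lay above 0. Called were the transcription factor gene TT2 at -1.02, LEC1 at -0.68, the peptide gene CLE8 at -2.06 and the proanthocyanidin gene BAN at -1.06. The calls of STK, SHP1, SHP2, TT2, CLE8 and BAN were each lost in 8 of 18 alternatives, and that of LEC1 in 7. With normexp LEC1 stood at -0.35 and CLE8 at -1.05. AGL62 at -0.35, FIS2 at -0.11 and MINI3 at -0.83 were not called. Against the wild-type mean, the median of these markers was -0.63, -0.83 and -1.22 in atnaod 1 to 3. Of 8 pollen markers 0 were called, with a list median of -0.24, 0.15 and 0.50 in atnaod 1 to 3. Those of lowest p were SWEET5 at 0.77, AGP23 at -0.46, SKS12 at 0.36 and PPME1 at 0.18. SWEET5 was well above background in 3 atnaod samples but only 1 wild-type sample, so its atnaod samples alone brought it into the test. Its size rests on dim wild-type values, and it shrank to 0.24 under normexp and to 0.31 in the deposited value table. The part of these markers' changes in the JAZ values was not tested.

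RefSeq places 7 of the 10 on chromosome 1, where JAZ5 and the lipoxygenase gene LOX3 have 2 protein-coding genes between them, and JAZ6 and the lipoxygenase gene LOX4 have 6. Of the 20 protein-coding genes directly beside a member, 16 were tested and 2 were called, where 5.78% of all genes were called. The neighbour of JAZ1, AT1G19190, fell by 0.91 (adjusted p = 0.0285), and that of JAZ4, AT1G48490, rose by 0.57 (adjusted p = 0.0464), a call lost with the replicate block (adjusted p = 0.0635). The tested neighbour of JAZ10, AT5G13210, stood at 0.28 (adjusted p = 0.220).

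Of 9 other genes of the TIFY family 1, JAZ13, was called higher, where 2.72% of all genes were. JAZ13 encodes a divergent repressor that, like JAZ7 and JAZ8, lacks the canonical degron. It read -7.75, -7.07 and -6.89 for wild type 1 to 3, against -5.47, -6.09 and -5.26 for atnaod 1 to 3. It was not well above background in any wild-type sample and was so in all 3 atnaod samples. JAZ13 thus entered the test only through the genotype in which it was high. By the detection floor it was at least 1.82-fold higher. The limma call (adjusted p = 0.0321) belongs to the log2 change of 1.63, which rests on wild-type values not well above background. That change was 0.51 with normexp (adjusted p = 0.0468) and 0.60 with the deposited values (adjusted p = 0.496). It was not testable when all 6 arrays had to be above background, and each fit without 1 sample lost the call. ZML2 stood at 0.38 (adjusted p = 0.0691), TIFY8 at -0.24 and ZIM at -0.17. JAZ11 and JAZ12, which carry the same Jas domain, stood at -0.02 and -0.08, with intervals of -0.24 to 0.20 and -0.31 to 0.15. A difference between JAZ10 or JAZ13 and the other members was not itself tested.

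**Figure D4:**
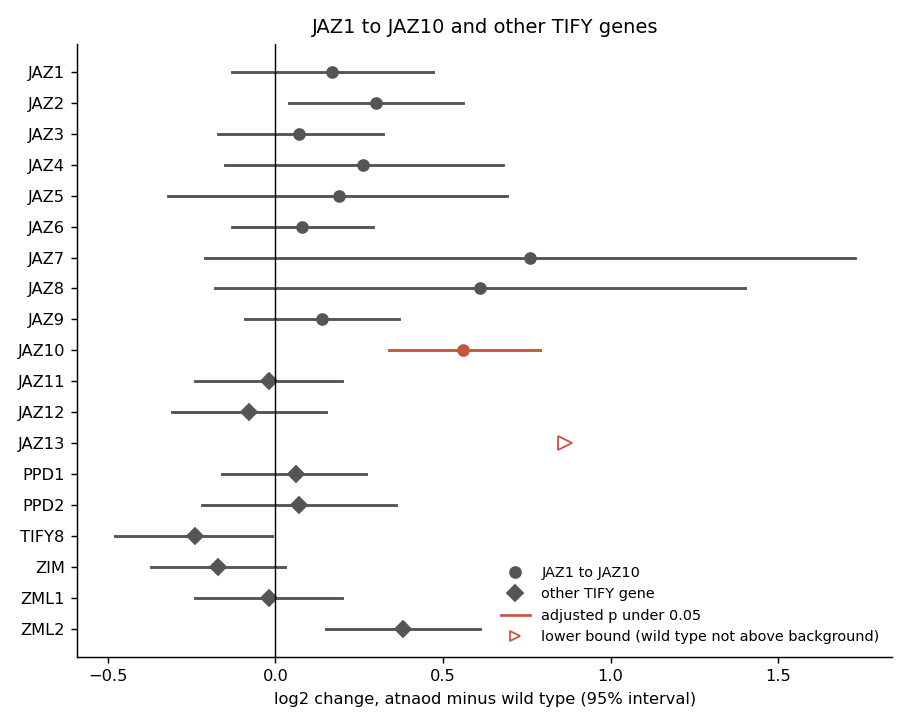
Log2 change, atnaod minus wild type, with its 95% interval, of JAZ1 to JAZ10 (circles) and 8 other TIFY genes (diamonds). JAZ10 at 0.56, in red, had an adjusted p under 0.05. The open triangle marks JAZ13 at its lower bound of 1.82-fold, since it was not well above background in wild type. The intervals of JAZ7 and JAZ8 are the widest of the 10 JAZ genes.

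Of 14 genes of hormone perception and corepression 0 were called with limma, where 5.78% of all genes were. An unadjusted p under 0.05 was found for 2 of them, against 25.8% of all genes. The corepressor genes TPL and TPR2 stood at 0.42 (0.19 to 0.64, adjusted p = 0.0537) and 0.33, and TPR4 and TPR1 at 0.24 and 0.25. COI1 stood at 0.18 (-0.03 to 0.39). Of 23 tested genes of JAZ-bound transcription factors 1 fell and 0 rose, a share near the 3.06% of all genes called lower. It was TT8, a regulator of proanthocyanidin synthesis in the seed coat, at -0.65 (SE 0.101, adjusted p = 0.0278). MYC5, which acts in stamens, stood at -0.67 (adjusted p = 0.0588), MYC3 at 0.38 (adjusted p = 0.0787) and WRKY57 at 0.43. MYC2 stood at 0.26 (-0.01 to 0.52, adjusted p = 0.202), and the stamen and petal regulator MYB21 at 0.55 (0.10 to 1.01, adjusted p = 0.132).

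Of 10 tested genes whose enzymes inactivate jasmonates (of 12 listed) 6 rose and 0 fell, where 2.72% of all genes were called higher. JOX2 and JOX4, whose enzymes hydroxylate jasmonic acid, rose by 0.74 and 1.31 (adjusted p = 0.0207 and 0.0177). CYP94B1 and CYP94B3, which oxidise jasmonoyl-isoleucine, rose by 1.16 (adjusted p = 0.0259) and 1.45 (adjusted p = 0.0362, and 0.0606 with the replicate block). IAR3 and ILL6, amidohydrolase genes of jasmonoyl-isoleucine cleavage, rose by 0.66 and 0.49 (adjusted p = 0.0199 and 0.0375). CYP94C1 stood at 0.27 (adjusted p = 0.118) with all atnaod samples above wild type, and JOX3, ST2A and JMT lay within overlapping ranges. The list's median relative to the wild-type mean was -0.14, 0.05 and 0.08 for wild type 1 to 3, against 0.57, 0.58 and 0.59 for atnaod 1 to 3. The count of 6 became 5 without wild type 1 or atnaod 1, 1 without atnaod 3 and 0 without wild type 2, wild type 3 or atnaod 2.

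**Figure D5:**
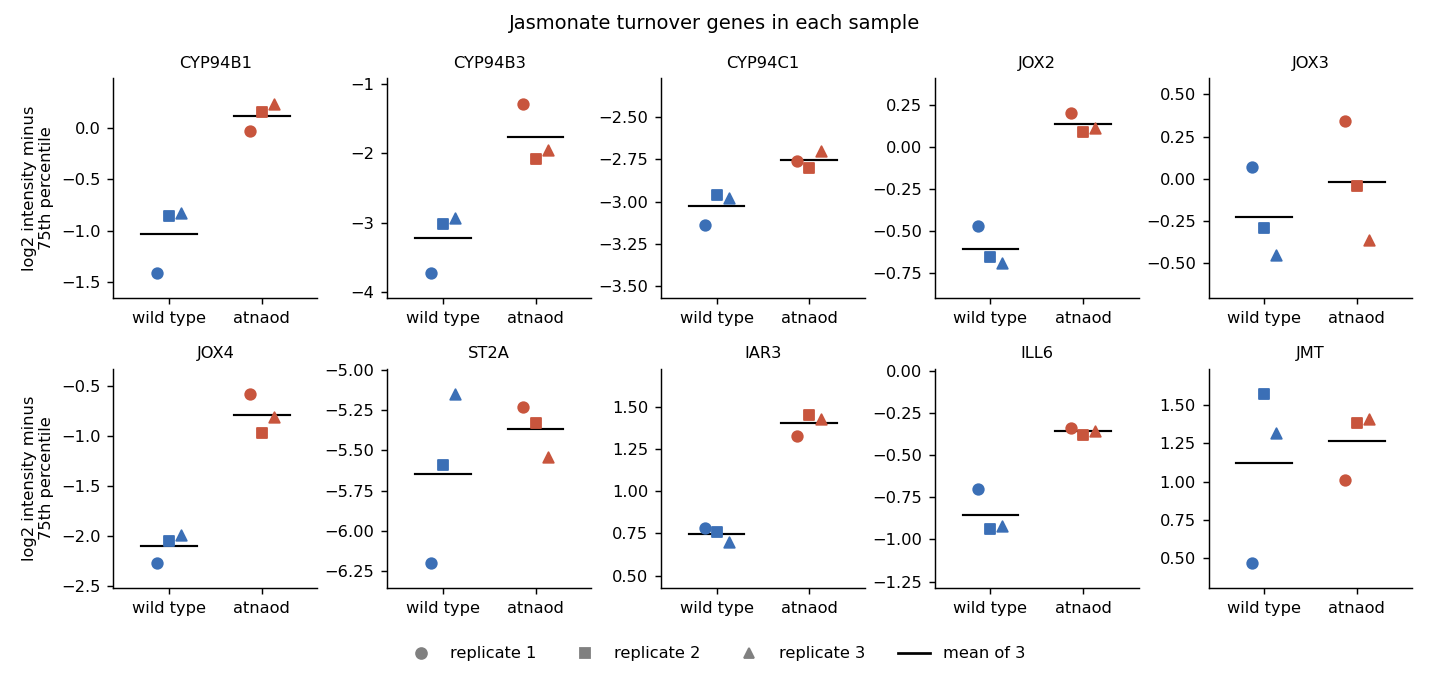
Level of the 10 tested jasmonate turnover genes in each sample, as log2 intensity minus the 75th percentile of the array, with black lines at the mean of 3 and a separate vertical range per panel. In 7 of the 10 genes, all but JOX3, ST2A and JMT, the 3 atnaod samples lie above the 3 wild-type samples. Of all genes 15.3% show this.

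Among 16 tested genes of jasmonate synthesis 0 were called with limma, 5 had an unadjusted p under 0.05, and 14 lay above 0, against 25.8% and 48.8% of all genes. Their median was 0.22. The allene oxide cyclase gene AOC1 stood at 0.47 (adjusted p = 0.0785), the transporter gene PXA1 at 0.30 and the beta-oxidation gene ACX5 at 0.24. LOX3, near JAZ5, stood at 0.62 (0.17 to 1.07, adjusted p = 0.100), and LOX4, near JAZ6, at 0.83 (0.06 to 1.6, adjusted p = 0.168). With the mean over the probes of a gene, AOC1 stood at 0.21, LOX3 at 0.41 and ACX5 at 0.23. Of 15 tested jasmonate response genes 2 rose and 0 fell, where 2.72% of all genes were called higher, and 9 lay above 0 and 6 below. The called genes were the ERF-family transcription factor gene RAP2.6 at 2.08 (SE 0.277, adjusted p = 0.0207) and the cystine lyase gene CORI3 at 0.87 (SE 0.139, adjusted p = 0.0282). Without atnaod 1 this list had 4 calls, 2 in each direction, and without wild type 2, wild type 3 or atnaod 2 it had 0. The aminotransferase gene TAT3 stood at -2.22 (-3.77 to -0.67, adjusted p = 0.0921) and the defensin gene PDF1.2 at 1.41 (-0.07 to 2.88). PDF1.2 was well above background in 3 atnaod samples and 1 wild-type sample, and so entered the test only through atnaod. Its change was 0.54 with normexp and 0.63 with the deposited values. In all, 9 of 87 tested pathway genes outside JAZ1 to JAZ10 were called higher and 1 lower, against 2.72% and 3.06% of all genes. Of the 9, 6 were turnover genes and 1 was JAZ13, which entered the test only through its atnaod samples.

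Genes whose values followed the JAZ pattern were sought over the 6 arrays by the root mean square difference between centred log2 values. Only genes with a symbol were ranked, and JAZ1 to JAZ10 were left out, so that loci without a symbol may lie closer. Nearest to JAZ10 were MIZ1 (0.0396), RPT2 (0.0397), UBC28 (0.0433), GSTU16 (0.0453) and LYK2 (0.0534), whose own changes lay between 0.49 and 0.61. All 5 were called, GSTU16 not with the replicate block (adjusted p = 0.0507). They were picked for closeness to a called gene, so their calls follow from that choice and are no separate result. Nearest to the mean profile of the 10 members were OXS3 (0.0449), HMGB1 (0.0550), CIPK16 (0.0564), IQD19 (0.0609) and LCL1 (0.0619), with differences of 0.28 to 0.41 and 0 calls. The ranked genes were those with a symbol among 24407 genes with values in all 6 samples, and their ranks carry no test.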

How the data were processed

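Total RNA of 6 flower samples was labelled with Cy3 (200 ng per sample, per the labels) and hybridised to 1 single-colour Agilent array each. Per the file headers, the deposited scanner values are intensity per spot from Agilent Feature Extraction 10.5.1.1 (10.5 in the submitters' processing notes), background-subtracted and detrended within the array and not normalized between arrays. The deposited value table holds intensity on a linear scale, found to be the median spot signal times 0.732 to 1.61 per array. The values were used as log2 of the processed intensity minus the array's 75th percentile. Outlier-marked spots, 2 to 35 on an array, were dropped, and repeated spots of a probe were averaged. A probe was tested if well above background on all arrays of 1 genotype, and a gene was read by its probe of highest mean. A fold for a gene at background on all arrays of a genotype is a bound from the lowest signal well above background on each array. Groups of 3 were compared with limma 3.58.1 (lmFit, eBayes) in R 4.3.3, two-sided, with Benjamini-Hochberg adjustment over all genes tested, and called under 0.05. The fit was also run on arrays simulated with known changes and without slide effects, which checks the code and not the error rate in these arrays. The 38413 probes with a locus code were named through RefSeq (TAIR10.1), where 37943 found their locus.

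Members and gene lists were chosen with earlier results of these data known. The text names all JAZ genes, called members and up to 4 members of lowest p of each other list. It also names the 5 genes with a symbol that were nearest to each JAZ profile. JAZ11, JAZ12, COI1, MYC2, MYB21, LOX4, CYP94C1, JOX3, ST2A, JMT and NATA1 were chosen after their values were seen, as were the genes beside each member. Deviations of same-number samples correlated at 0.190, 0.111 and 0.535 across genes. Samples of different number on the same slide correlated at 0.215 and 0.105. For samples 1 and 2 these values thus show no pairing by number beyond the shared slide. The value of 0.535 belongs to the pair alone on its slide, for which number and slide cannot be told apart. The replicate block is an alternative setting whose pairing is given neither by the labels nor, for samples 1 and 2, by these values. Alternatives were other background corrections, scalings, filters, priors, blocks and leaving out single samples. Slide and scan cannot be told apart.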

Additional observations from a re-analysis of the deposited data

Results flagged for a closer look

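Among the probes of listed genes that were too dim to be tested, 4 were well above background in some atnaod samples and in no wild-type sample. An HDA6 probe showed the opposite, in 1 wild-type and 0 atnaod samples, and probes of GL1 and TAT3 were so in 2 wild-type samples and 1 atnaod sample each. Probes of LOX3 and AOC2 were so in 1 wild-type sample and 2 atnaod samples each. The lowest log2 signal counted as well above background differed between arrays. It was -6.82, -6.41 and -6.17 for wild type 1 to 3, against -6.67, -6.90 and -7.29 for atnaod 1 to 3. Its part in these detection counts was not tested. The second JAZ4 probe was well above background in 2 of 3 atnaod samples, with -7.22, -6.83 and -6.57 in atnaod 1 to 3 against -7.04, -6.97 and -7.46 in wild type 1 to 3. The values of the 2 genotypes overlapped. One probe of JOX1, a gene of jasmonic acid hydroxylation, was well above background in 2 atnaod samples, at -7.22, -6.78 and -6.25 against -7.22, -7.33 and -6.99. The probe of DAD1, a lipase gene of jasmonate synthesis in stamens, was so in 1 atnaod sample, at -5.81, -8.87 and -8.82 against -6.83, -8.51 and -7.35. The probe of GL3, a JAZ-bound trichome regulator, was so in 1, at -6.71, -6.84 and -6.57 against -7.29, -7.08 and -7.28.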

How the results depend on the processing

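The direction of 75 of the 79 genes recomputed under the alternatives held in all that were run. The exceptions were JAZ3, which turned from 0.07 to -0.01 on the first slide alone and to -0.02 without wild type 3 (-0.02 to 0.12 over fits without 1 sample), NATA1, which turned from -0.35 to 0.22 without atnaod 2 (-1.26 to 0.22), JMT, which turned from 0.14 to -0.18 without wild type 1 (-0.18 to 0.37), and JAZ11, which lay at -0.02 and turned in 6 alternatives (-0.07 to 0.02 without 1 sample, 0 with median centring, 0.01 with the mean over probes, 0.05 with array weights). The cause was not tested. AtNAOD stayed called in all of them, at -8.94 to -8.78 without 1 sample and at -1.23, by its second probe, when all 6 arrays had to be above background. With the deposited values, without a filter on dim probes and on the first slide alone, 0 JAZ genes and 0 JAZ probes were called, and so were 0 other TIFY, 0 JAZ-bound factor, 0 turnover and 0 response genes; these settings called 12, 22 and 27 genes in all. Over fits without 1 sample the calls ranged from 0 to 1 for JAZ genes, 0 to 2 for JAZ probes, 0 to 0 for other TIFY genes, 0 to 2 for JAZ-bound factors, 0 to 5 for turnover genes and 0 to 4 for response genes. Other TIFY calls were 0 when all 6 arrays had to be above background, 2 with a trended and robust prior, 3 with array weights and 2 with slide as a block. Perception and corepressor calls were 1 with normexp, 1 when all 6 arrays had to be above background, 1 with the trended prior and 3 with array weights. JAZ-bound factor calls were 3 with normexp, 3 with the trended prior, 7 with array weights and 2 with slide as a block. Synthesis calls were 1 with normexp, 1 with array weights and 1 with slide as a block. With the replicate block 1 JAZ gene was called, and of the 79 genes CYP94B3, GSTU16 and AT1G48490 lost their call. The number of arrays limits the precision, and JAZ4, JAZ13, PDF1.2 and SWEET5 lie near the detection limit.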

Other observations

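NATA1, a jasmonate-induced gene whose enzyme acetylates ornithine at its side chain, was singled out after its values were seen, because its substrate is the product of the enzyme disrupted in atnaod. It read -3.04, -2.99 and -3.04 for wild type 1 to 3, against -1.56, -4.52 and -4.04 for atnaod 1 to 3. The wild-type samples were nearly equal, atnaod 1 was the highest sample and atnaod 2 and 3 were the lowest. The difference of the means was -0.35 (95% interval -2.0 to 1.30, adjusted p = 0.794 with limma), and -1.26 without atnaod 1 (adjusted p = 0.0139), the 1 alternative of 18 that called it. TAT3, also a jasmonate response gene, stood at -1.48, -2.04 and -1.92 for wild type 1 to 3, against -2.41, -5.24 and -4.45 for atnaod 1 to 3, with atnaod 1 again the highest of the mutant samples.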
